A study of Rattus norvegicus with 36 samples.

Results

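The actin, myosin, tropomyosin and tubulin genes form the building blocks and motors of the cell skeleton. They were taken here as every gene whose symbol in the array annotation starts with Acta, Actb, Actg, Actn, Actr, Arpc, Myl, Myh, Tuba, Tubb or Tubg, or with Tpm or Myo followed by a digit. This gave 37 genes on 39 probes, of 6444 named genes and 9911 probes on the array. Where a gene had 2 probes, as Myh9 and Arpc1b did, the brighter one was used. Kidney RNA was measured on 36 CodeLink arrays, 1-colour oligonucleotide arrays, from 31 male rats aged 6 to 8 weeks, with 2 arrays each for 5 rats. RNA came from a piece of whole kidney, so all cell types of the organ are mixed in each sample.

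In ischemia rats both kidneys lost their blood supply for 40 min, and reperfusion then lasted 8 h in 3 rats and 2 h in 4 rats. Another 3 ischemia rats were given 50 µg of α-melanocyte stimulating hormone (αMSH), a peptide hormone with anti-inflammatory action, intravenously and studied at 2 h. Mercuric chloride, a metal salt toxic to the tubule, was injected under the skin at 4 mg/kg, with harvest at 8 h or 2 h (3 rats each), and cisplatin, a platinum drug, was given into the peritoneum at 20 mg/kg, with harvest at 2 h (3 rats). Sham rats (3) had 40 min of surgery without ischemia and were studied at 8 h. Volume-depleted rats (4) received furosemide, a loop diuretic, into the peritoneum at 20 mg/kg at the start and again at 8 h, ate a diet lacking sodium, and were studied at 24 h. Normal rats (5) were untreated. The arrays came from 2 lots, which the labels do not assign to arrays. Normal rats 1 to 3 were taken as the first lot and normal rats 11 and 12 as the second. The sham, cisplatin and 8 h mercuric chloride rats were placed in the second lot and the other treated rats in the first, and each group was compared with the normal rats of its own lot.

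Intensities are given as multiples of the median intensity of the same array, with a floor at 0.1 of that median. Of the 37 genes, 27 lay above the floor in every rat. The atrial light chain gene Myl7 was at the floor in 29 of 31 rats and was not tested, which left 36 genes. Differences are on the log2 scale with their standard error (SE), and a gene was called where limma's p, adjusted by Benjamini-Hochberg over all probes of a comparison, was under 0.05. The third rat at 8 h of ischemia stood apart over the whole array, as its median correlation with the other rats of its group was 0.928, against 0.959 to 0.991 in the other rats of the series. Results that rest on it are given with and without it. Values of sham rat 3 were moved by 2 lines against the probe names before use. All 5 genes used to check the tissue, Umod, Kap, Slc12a1, Slc12a3 and Aqp2, were above the floor in every group. Actins and tubulins have near-identical family members, and whether the probes tell them apart was not tested.

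Actin polymerises into filaments that carry cell shape, contraction and, in the proximal tubule, the brush border. Tropomyosins lie along these filaments, the Arp2/3 complex branches them, α-actinins link them, and myosins pull on them under the control of light chains and light chain kinases. Tubulins form microtubules, hollow tracks for transport that start from the γ-tubulin ring complex. Loss of the brush border and of the ordered actin of tubule cells is a known early change in ischemic kidneys.

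The cytoskeletal genes, like the array as a whole, had the most calls at 8 h of ischemia. There 17 of the 36 tested genes were called against normal rats, 13 higher and 4 lower, which is 47.2% where 41.7% of all probes were called. The total was thus close to the background, while 36.1% of the genes were higher where 20.8% of all probes were, and 11.1% were lower where 20.9% of all probes were. The median difference of the genes was 0.23, and that of all probes 0.01. At 2 h of ischemia 5 genes were higher and 1 was lower (16.7%, against 14.7% of all probes, 7.36% higher and 7.37% lower). With αMSH, 3 genes were higher and 1 was lower than in normal rats (11.1%, against 13.3% of all probes, 6.69% higher and 6.61% lower). After mercuric chloride 1 gene was higher and 2 were lower at 8 h (8.33%, against 10.9% of all probes, 5.27% higher and 5.66% lower), and 1 was lower at 2 h (2.78%, against 7.68% of all probes, 3.07% higher and 4.61% lower). No cytoskeletal gene was called after cisplatin, sham surgery or volume depletion, where limma called 0.574%, 0.351% and 0.169% of all probes. At an unadjusted p under 0.05, 1 gene differed after cisplatin, 2 after sham surgery and 4 after volume depletion. In all, 20 genes were called in at least 1 of these 8 comparisons and 16 in none. In whole kidney, fewer cells of a type and less RNA per cell cannot be told apart.

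**Figure D1:**
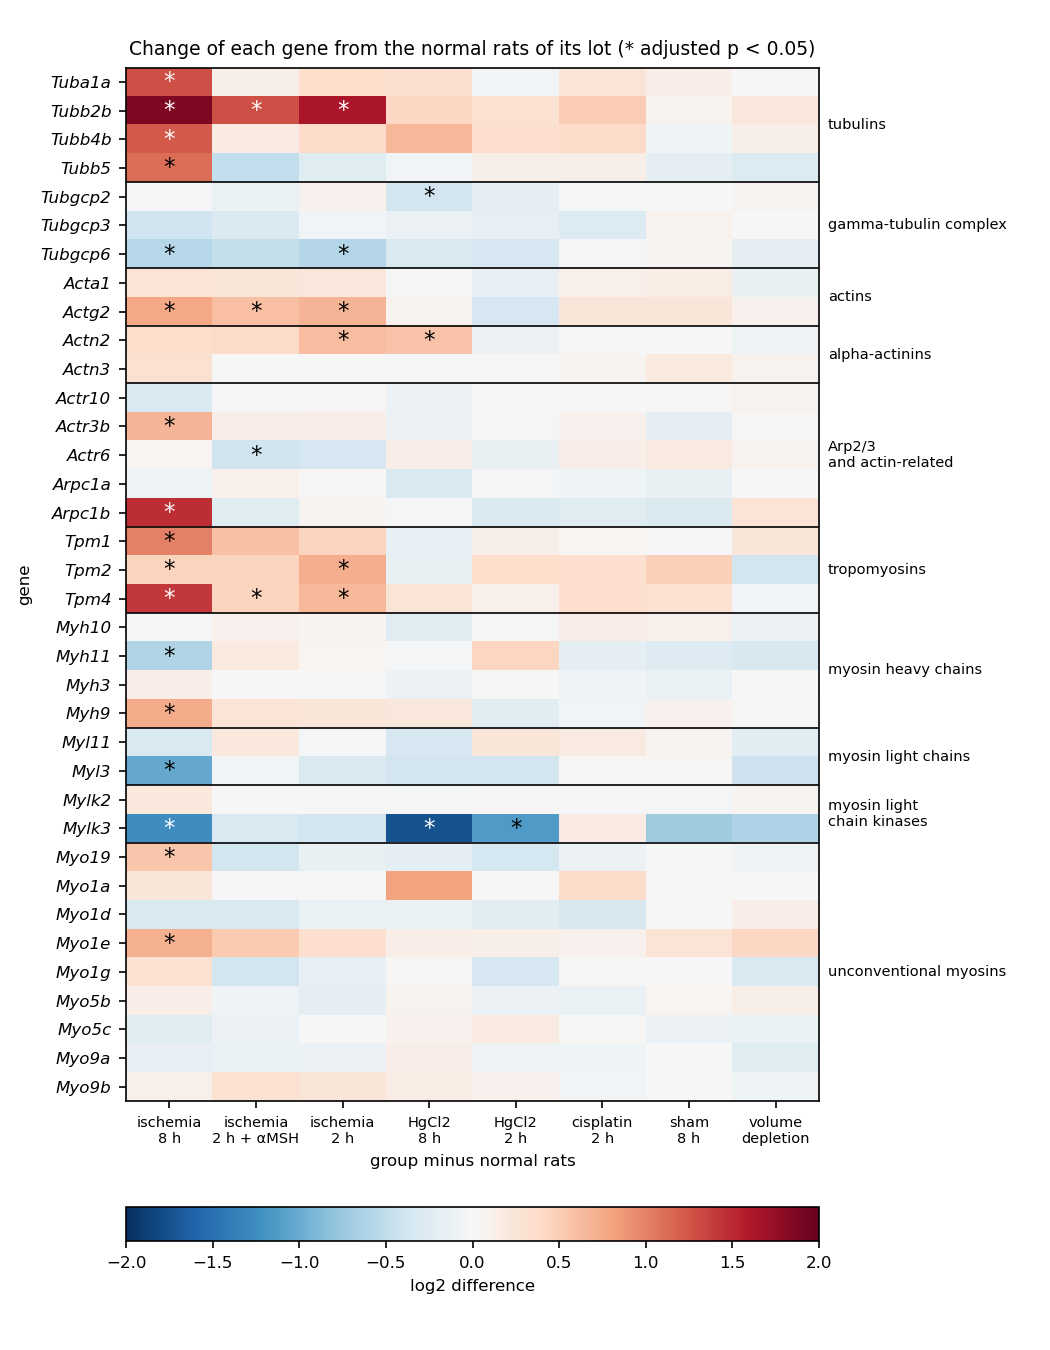
Log2 difference of the 36 tested genes (rows, grouped by family) from the normal rats of the same lot, for the 8 treated groups (columns), with asterisks at an adjusted p under 0.05. The asterisks lie mainly in the 8 h ischemia column, with 17 of 36 genes, and none lies in the cisplatin, sham and volume depletion columns.

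Among the families, the tubulins had the largest median difference at 8 h of ischemia. All 4 that were measured were higher there than in normal rats, by a median of 1.26, where the median of all probes was 0.01. These are Tuba1a, an α-tubulin, Tubb2b, a β-tubulin best known from neurons, and the broadly expressed β-tubulins Tubb4b and Tubb5. Their promoters are shown here because all 4 were called higher at 8 h of ischemia, while at 2 h only Tubb2b was called. Each runs from 250 bases before to 50 bases after the start of transcription (RefSeq, rat assembly GRCr8). Capitals mark CCAAT, the sequence read by the factor NF-Y, or its reverse complement ATTGG, searched on both strands. The positions are chr17:30952836-30953135, plus strand, for Tubb2b, chr7:131995770-131996069, minus strand, for Tuba1a, chr3:28438406-28438705, minus strand, for Tubb4b, and chr20:2917327-2917626, plus strand, for Tubb5.
Tubb2b: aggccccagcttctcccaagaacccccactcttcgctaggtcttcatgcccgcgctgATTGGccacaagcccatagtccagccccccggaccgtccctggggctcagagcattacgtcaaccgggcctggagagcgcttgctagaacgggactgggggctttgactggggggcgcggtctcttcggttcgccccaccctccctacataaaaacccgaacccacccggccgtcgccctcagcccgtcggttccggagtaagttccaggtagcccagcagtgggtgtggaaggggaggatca
Tuba1a: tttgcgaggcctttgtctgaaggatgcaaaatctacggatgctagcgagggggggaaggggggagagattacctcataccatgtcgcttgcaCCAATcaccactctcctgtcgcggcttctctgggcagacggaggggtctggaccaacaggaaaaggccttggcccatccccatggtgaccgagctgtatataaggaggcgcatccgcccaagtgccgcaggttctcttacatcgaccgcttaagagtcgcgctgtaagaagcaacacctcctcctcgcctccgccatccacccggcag
Tubb4b: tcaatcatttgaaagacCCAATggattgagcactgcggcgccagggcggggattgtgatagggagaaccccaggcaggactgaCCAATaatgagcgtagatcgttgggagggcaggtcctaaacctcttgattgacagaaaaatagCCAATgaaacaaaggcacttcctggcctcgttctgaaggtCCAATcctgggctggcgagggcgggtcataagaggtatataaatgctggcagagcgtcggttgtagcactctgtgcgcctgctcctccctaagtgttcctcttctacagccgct
Tubb5: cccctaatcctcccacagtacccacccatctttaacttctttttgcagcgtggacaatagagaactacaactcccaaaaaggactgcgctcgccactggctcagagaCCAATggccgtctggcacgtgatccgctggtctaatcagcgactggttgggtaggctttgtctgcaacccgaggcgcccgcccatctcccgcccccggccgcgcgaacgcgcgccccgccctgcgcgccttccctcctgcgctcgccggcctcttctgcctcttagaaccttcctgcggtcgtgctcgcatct
CCAAT was present in 4 of these 4 promoters, with 4 matches in Tubb4b, and in 37.5% of all 33469 promoters of the same length. Of the promoters of the 13 genes that were higher at 8 h of ischemia, 9 held CCAAT and 11 held GGGCGG, a sequence read by Sp1 that stood in 33.1% of all promoters. Both were also frequent over all 34 promoters of the cytoskeletal genes, CCAAT in 47.1% and GGGCGG in 58.8%. Of the 16 tested genes with a promoter that were neither higher nor lower at 8 h, 5 held CCAAT and 9 held GGGCGG. A match shows only that these letters occur in this window.

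Tubb2b was measured at 2.44, 2.99 and 0.691 times the array median in rats 1 to 3 at 8 h of ischemia, at 1.36, 1.09, 1.55 and 1.95 times in the 4 rats at 2 h, and at 0.304, 0.57 and 0.6 times in normal rats 1 to 3. Every ischemia rat lay above every normal rat, but the third 8 h rat lay far below the others of its group and near the normal rats. The difference from normal rats was 1.87 ± 0.35 at 8 h (adjusted p = 0.000113) and 1.63 ± 0.33 at 2 h (adjusted p = 0.000926). Without the third rat it was 2.52 at 8 h, and without the first normal rat, the lowest, 1.55. With αMSH, Tubb2b was at 1.11, 0.935 and 1.46 times the median, also above every normal rat of the lot, a difference of 1.29 ± 0.35 (adjusted p = 0.0142). That call was lost without the first normal rat or without the third αMSH rat. In the sham rats Tubb2b was at 0.444, 0.472 and 0.45 times the median, just above the 0.435 of both normal rats of the second lot, and was not called (0.07 ± 0.39, adjusted p = 1). In the mercuric chloride, cisplatin and volume-depleted rats Tubb2b lay between 0.454 and 0.768 times the median, with no call against normal rats.

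Tubb5 was at 8.41, 6.86 and 8.76 times the array median at 8 h of ischemia, at 3.49, 2.85, 2.89 and 3.25 times at 2 h, and at 4.7, 3.68 and 2.88 times in normal rats 1 to 3. The 8 h rats were all above the others, and the 2 h rats lay within the range of the normal rats apart from one just below it. Tubb5 was 1.11 ± 0.19 above normal rats at 8 h (adjusted p = 3.08e-05), and at 2 h its difference was -0.24 ± 0.17 (adjusted p = 0.431). The difference of 8 h from 2 h was 1.36 ± 0.17 (adjusted p = 1.36e-06). Outside 8 h of ischemia the highest rat was a cisplatin rat at 5.49 times, in a group whose other rats were at 3.29 and 5.14 times and that was not called.

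Tuba1a was at 26.9, 28.8 and 42.7 times the array median at 8 h of ischemia, at 16.2, 14.2, 16.3 and 21.1 times at 2 h, and at 16.4, 11.2 and 12.3 times in normal rats 1 to 3. Tubb4b was at 45.9, 52.1 and 88.1 times at 8 h, at 34.1, 32.2, 29.3 and 37.2 times at 2 h, and at 32.1, 23.1 and 22.1 times in these normal rats. For both genes the 8 h rats were all above the 2 h and normal rats, with the third 8 h rat the highest, while the 2 h and normal rats overlapped. Tuba1a rose by 1.29 ± 0.16 over normal rats at 8 h (adjusted p = 7.13e-07) and Tubb4b by 1.23 ± 0.20 (adjusted p = 2.46e-05). At 2 h the differences were 0.35 ± 0.15 for Tuba1a (adjusted p = 0.133) and 0.38 ± 0.19 for Tubb4b (adjusted p = 0.202). The 8 h rats exceeded the 2 h rats by 0.94 ± 0.15 in Tuba1a (adjusted p = 3.58e-05) and by 0.85 ± 0.19 in Tubb4b (adjusted p = 0.000932). Tubb4b was also at 41.1, 38.5 and 59.3 times the median 8 h after mercuric chloride, above the 28.3 and 28.7 times of normal rats 11 and 12. That difference missed the threshold (0.67 ± 0.23, adjusted p = 0.0574). Against the sham rats of the same lot and time, at 25.8, 26.3 and 29.2 times, it passed (0.75 ± 0.20, adjusted p = 0.0134), a call lost without the third mercuric chloride rat or the first sham rat. Cisplatin rats were split, with Tubb4b at 26.6 times in one and at 46.2 and 42.5 times in the others, and no call.

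**Figure D2:**
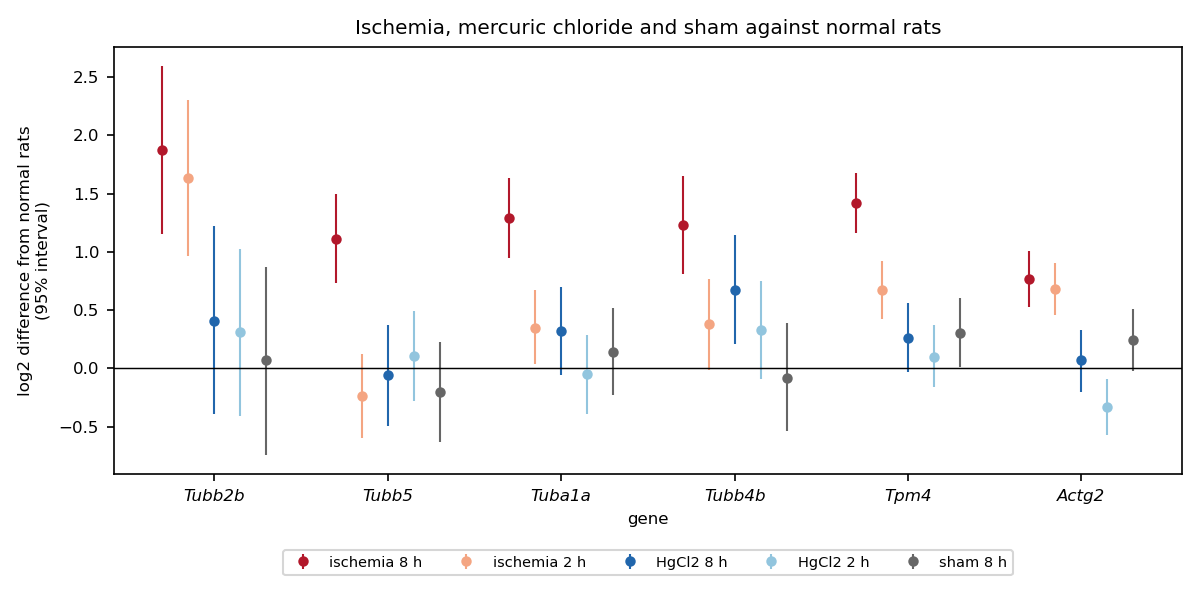
Log2 difference from the normal rats of the same lot (points, with 95% intervals) for the 4 tubulins, Tpm4 and Actg2 at 8 h and 2 h of ischemia, 8 h and 2 h after mercuric chloride, and after sham surgery. Tubb2b and Actg2 stood at similar heights at both times of ischemia, and Tubb5 was at 1.11 at 8 h of ischemia and at -0.24 at 2 h.

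Of the 3 measured genes of the γ-tubulin complex, which seeds microtubules, Tubgcp6 was lower after ischemia at both times. Its difference from normal rats was -0.57 ± 0.17 at 8 h (adjusted p = 0.00879) and -0.58 ± 0.16 at 2 h (adjusted p = 0.0127). It was at 0.377, 0.405 and 0.496 times the median at 8 h, at 0.453, 0.364, 0.425 and 0.441 times at 2 h, and at 0.797, 0.506 and 0.609 times in normal rats 1 to 3. The groups did not overlap, yet both calls were lost without the first normal rat, the highest. Tubgcp2 was called 8 h after mercuric chloride, at -0.36 ± 0.11 from normal rats (adjusted p = 0.0364) and -0.37 ± 0.10 from sham rats (adjusted p = 0.0121). The first call was lost without either normal rat of the lot, or without mercuric chloride rat 2 or 3. Tubgcp3 was called in no comparison.

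The 3 tropomyosins were all called higher at 8 h of ischemia, by a median of 1.00. Tpm4, a low-molecular-weight form of non-muscle cells, was at 23.3, 23.1 and 36.0 times the array median at 8 h, at 15.7, 15.7, 14.9 and 17.7 times at 2 h, and at 11.4, 9.62 and 9.2 times in normal rats 1 to 3. The 3 groups were separate and in this order, with the third 8 h rat the highest. Tpm4 was 1.42 ± 0.13 above normal rats at 8 h (adjusted p = 3.4e-09) and 0.67 ± 0.12 above them at 2 h (adjusted p = 0.000254), and the 8 h rats were 0.75 ± 0.12 above the 2 h rats (adjusted p = 2.6e-05). With αMSH Tpm4 was at 13.9, 13.1 and 14.1 times, again above every normal rat, by 0.45 ± 0.13 (adjusted p = 0.0192). This call was lost without normal rat 2 or 3, or without αMSH rat 1 or 3. Sham rats, at 12.4, 12.0 and 13.1 times, also lay above normal rats 11 and 12, at 10.5 and 9.72 times, a difference of 0.30 ± 0.14 that was not called (adjusted p = 0.844). Tpm4 remained 1.12 ± 0.19 higher at 8 h of ischemia than in sham rats (adjusted p = 0.00014), each set against the normal rats of its lot.

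Tpm2, a form of muscle and fibroblasts, was higher at 2 h of ischemia, by 0.72 ± 0.15 (adjusted p = 0.00113). At 8 h it was higher by 0.44 ± 0.16 (adjusted p = 0.0287). It was at 4.86, 5.06 and 8.14 times the median at 8 h, at 6.7, 7.12, 6.19 and 8.72 times at 2 h, and at 4.73, 3.94 and 4.3 times in normal rats 1 to 3. The 8 h call was lost without the third 8 h rat, the highest, or without normal rat 2 or 3. Tpm2 in the 8 h mercuric chloride rats, at 2.79, 2.82 and 2.87 times, was below the sham rats by 0.63 on the log2 scale (-0.63 ± 0.16, adjusted p = 0.00823).

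Tpm1, expressed in muscle and non-muscle cells, was at 0.603, 0.608 and 0.159 times the array median at 8 h of ischemia and at 0.1, the floor, 0.269 and 0.273 times in normal rats 1 to 3. The groups overlapped, since the third 8 h rat lay below 2 of the normal rats. Its difference was 1.00 ± 0.38 (adjusted p = 0.0379), and it was 1.64 without the third 8 h rat and 0.52, not called, without the first normal rat. The call was also lost without the first 8 h rat (0.68) or the second (0.67). At 2 h it was at 0.282, 0.309, 0.273 and 0.206 times, with no call (0.44 ± 0.36, adjusted p = 0.495).

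Of the 2 actins, Actg2, the γ-actin of smooth muscle, was higher in every ischemia group. It was at 48.3, 53.7 and 47.7 times the array median at 8 h, at 41.3, 46.9 and 44.9 times at 2 h with αMSH, at 48.0, 46.5, 40.8 and 52.8 times at 2 h, and at 27.9, 28.9 and 31.1 times in normal rats 1 to 3. All ischemia rats were above all normal rats, and the ischemia groups overlapped with each other. The differences from normal rats were 0.77 ± 0.12 at 8 h (adjusted p = 7.9e-06), 0.60 ± 0.12 with αMSH (adjusted p = 0.000707) and 0.68 ± 0.11 at 2 h (adjusted p = 6.55e-05). At 2 h, the ischemia rats were also above the mercuric chloride rats (23.6, 22.7 and 23.4 times) by 1.01 ± 0.11 (adjusted p = 3.16e-07). The mercuric chloride rats themselves were all below normal rats 1 to 3, by an amount that missed the threshold (-0.33 ± 0.12, adjusted p = 0.0813). Actg2 depended on the lot: normal rats 11 and 12, at 19.4 and 21.0 times, were 0.53 lower on the log2 scale than normal rats 1 to 3 (-0.53). Against the sham rats, at 25.4, 20.1 and 26.8 times, the 8 h ischemia rats were 0.53 ± 0.17 higher once each lot's normal rats were subtracted (adjusted p = 0.0297). That call was lost without sham rat 2, without normal rat 1, 2, 11 or 12, or without the second 8 h ischemia rat. Acta1, the actin of skeletal muscle, was called in no comparison (0.27 ± 0.17 at 8 h of ischemia).

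Of 5 smooth muscle markers, 1 was higher and 0 lower at each time of ischemia, with a median of 0.05 at 2 h and 0.10 at 8 h. Of all probes, 7.36% were higher at 2 h and 20.8% at 8 h. Myh11, the smooth muscle heavy chain given below, is not among the 5 and was called lower at 8 h. Tagln, an actin-binding protein of smooth muscle, was higher at 2 h of ischemia (1.10 ± 0.16, adjusted p = 1.77e-05) and was not called at 8 h (0.10 ± 0.17, adjusted p = 0.676). Ramp1, a receptor-modifying protein, was called at 8 h (0.90 ± 0.21, adjusted p = 0.00132) and was at -0.05 ± 0.20 at 2 h. Smtn, which codes for smoothelin of the contractile cell, was at -0.36 ± 0.30 at 8 h and -0.56 ± 0.28 at 2 h, and Cnn1, a calponin, at 0.22 ± 0.58 at 8 h and 1.01 ± 0.55 at 2 h, with no call for either gene. The summed level of the 5 markers was 7.88 to 11.3 times the median at 8 h and 14.3 to 18.3 times at 2 h, against 7.85 to 9.16 times in normal rats 1 to 3, and Pln was at the floor in all normal rats. The part of smooth muscle in the values of Actg2 and Tpm2 was not tested.

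The α-actinins, which bundle actin, are here the muscle forms Actn2 and Actn3. Actn2 was near the floor, at 0.143, 0.146, 0.233 and 0.148 times the median at 2 h of ischemia, with 4 of the 5 normal rats at the floor. It was called at 2 h (0.61 ± 0.15, adjusted p = 0.00651), and 8 h after mercuric chloride it was at 0.156, 0.149 and 0.141 times, at least 1.49-fold above normal rats 11 and 12, both at the floor (adjusted p = 0.0413). The 2 h call was lost with a floor of 0.2, with only probes above the floor in at least 16 rats, and with only the compared groups in the fit. The call after mercuric chloride was lost without any single rat of either group, and with a floor of 0.2. Actn3 was called nowhere, and its fit left out 1 rat with a missing value.

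The Arp2/3 complex starts new branches on actin filaments. Its subunit gene Arpc1b, in humans the form needed in white blood cells, was at 8.27, 9.1 and 11.5 times the array median at 8 h of ischemia, at 3.19, 2.78, 4.17 and 4.43 times at 2 h, and at 4.41, 3.2 and 2.86 times in normal rats 1 to 3. The 8 h rats were all far above the rest, and the 2 h and normal rats overlapped. Arpc1b rose by 1.48 ± 0.17 over normal rats at 8 h (adjusted p = 1.96e-07) and by 1.42 ± 0.16 over the 2 h rats (adjusted p = 2.24e-07). At 2 h it was at 0.06 ± 0.16 from normal rats (adjusted p = 0.897). A second, dimmer probe of Arpc1b was at 0.86 ± 0.44 at 8 h (adjusted p = 0.121), the same direction without a call. Its paralog Arpc1a, which can take the same place in the complex, was at -0.10 ± 0.11 at 8 h (adjusted p = 0.501). Actr3b, a close relative of the complex's Arp3, was higher at 8 h by 0.68 ± 0.14 (adjusted p = 0.000356), but near the floor, at 0.174, 0.169 and 0.146 times, with 2 of the 5 normal rats and all sham rats at the floor. With a floor of 0.2 it was not called.

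Arpc1b is rich in leukocytes, so their markers are given beside it. Of 6 leukocyte markers, 2 were higher at 8 h of ischemia, S100a9, a protein of neutrophils (5.02 ± 0.46, adjusted p = 3.85e-09), and Cd14, a receptor of monocytes (2.00 ± 0.26, adjusted p = 8.05e-07). Ptprc, the CD45 antigen of all leukocytes, was at -0.30 ± 0.17 (adjusted p = 0.178). Laptm5 was at -0.47 ± 0.22, Itgam at 0.03 ± 0.13 and Lyz2 at -0.01 ± 0.42, none called. Of all probes, 20.8% were higher. S100a9 was also called higher at 2 h of ischemia (3.53), with αMSH (3.35) and after sham surgery (2.47). After mercuric chloride it was higher at 8 h (3.53) and 2 h (2.35). Arpc1b was not called in these groups, at 0.06, -0.25, -0.29, -0.04 and -0.29. Cd14 was also called at 2 h of ischemia (1.21) and with αMSH (1.07). The summed level of the 6 was 15.7 to 32 times the median at 8 h, against 8.35 to 16.8 times in normal rats 1 to 3, with none at the floor throughout a group. Their part in the Arpc1b result was not tested. Myo1g, a myosin of blood cells, was not called at 8 h (0.31 ± 0.20, adjusted p = 0.23).

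The other actin-related genes act outside branching: Actr10 belongs to dynactin, the partner of the dynein motor, and Actr6 to a chromatin remodelling complex. Actr6 was called lower with αMSH (-0.40 ± 0.12, adjusted p = 0.0343), a call lost without any single normal rat of the lot, and higher at 8 h than at 2 h of ischemia (0.37 ± 0.12, adjusted p = 0.0148), a call lost without the third 8 h rat. Actr10 was not called in any comparison.

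**Figure D3:**
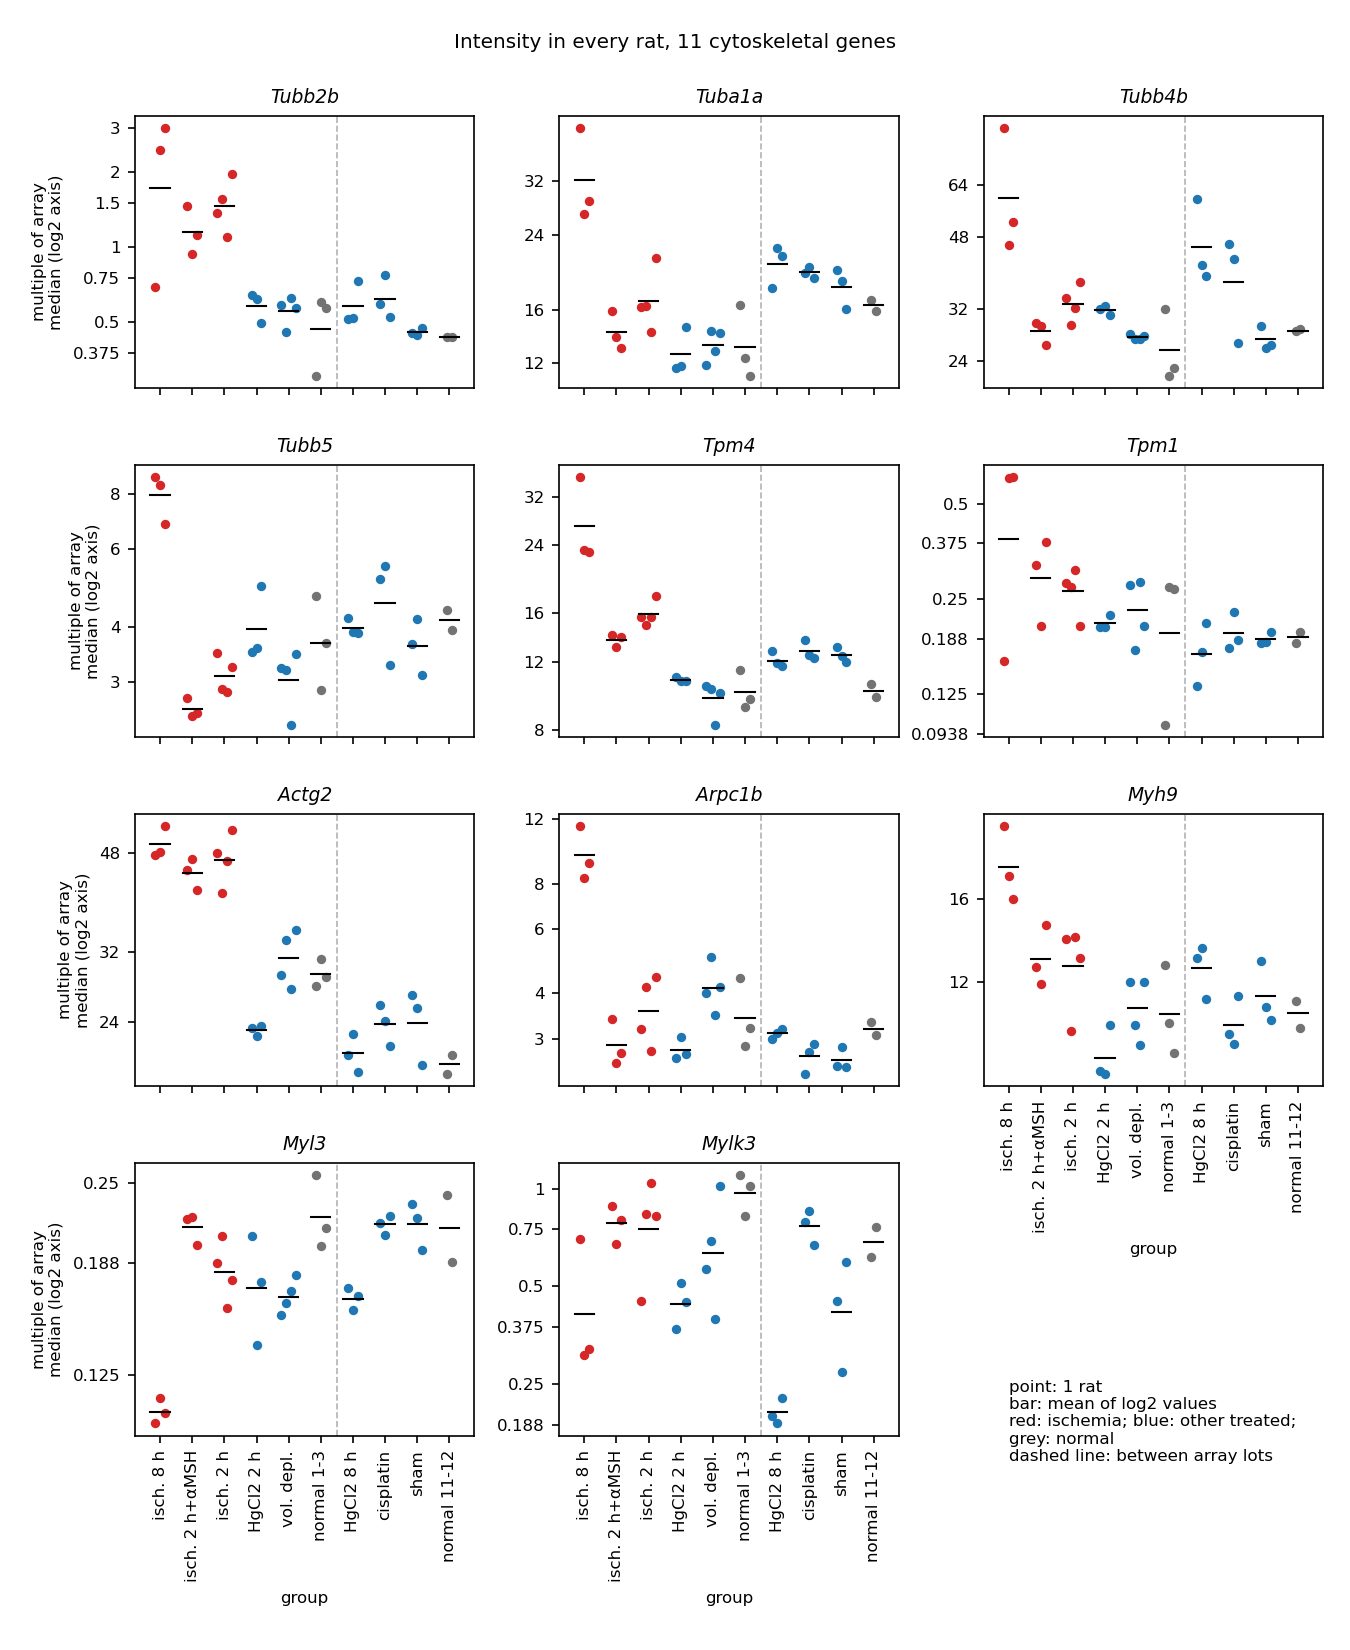
Intensity of 11 genes in each rat (points) as multiples of the array median on log2 axes, with the mean of log2 values as a bar, by group and array lot. The 8 h ischemia rats stand apart from all others in Tubb5, Tpm4, Arpc1b and Myl3, while the third 8 h rat falls to 0.691 in Tubb2b and 0.159 in Tpm1.

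The 4 class II myosin heavy chains went different ways at 8 h of ischemia. Myh9, the non-muscle heavy chain IIA of stress fibres, was at 17.3, 16 and 20.6 times the array median at 8 h, at 13.9, 14, 10.1 and 13 times at 2 h, and at 12.7, 9.35 and 10.4 times in normal rats 1 to 3. The 8 h rats were all above the 2 h and normal rats, which overlapped. Its rise was 0.74 ± 0.14 over normal rats (adjusted p = 0.000158) and 0.50 ± 0.13 over the 2 h rats (adjusted p = 0.0044). The second probe of Myh9 was also called at 8 h (0.49 ± 0.14, adjusted p = 0.00794). Myh10, the non-muscle heavy chain IIB, was at -0.01 ± 0.21 (adjusted p = 0.968). Myh11, the heavy chain of smooth muscle, was lower at 8 h, by 0.60 on the log2 scale from normal rats (-0.60 ± 0.22, adjusted p = 0.0275) and by 0.64 from the 2 h rats (-0.64 ± 0.20, adjusted p = 0.0137). It was at 1.11, 1.04 and 1.67 times the median at 8 h and at 2.33, 1.58 and 1.83 times in normal rats 1 to 3. The groups overlapped, and the call against normal rats was lost without normal rat 1, and both calls without 8 h rat 1 or 2. Myh3, the embryonic muscle form, was not called.

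The light chains and their kinases with a call were the striated muscle forms, and both fell. Myl3, the essential light chain of ventricle and slow muscle, was at 0.115, 0.109 and 0.105 times the array median at 8 h of ischemia, at 0.187, 0.159, 0.206 and 0.176 times at 2 h, and at 0.257, 0.212 and 0.199 times in normal rats 1 to 3. The 8 h rats were all below every other rat in the series and close to the floor. Myl3 fell by 1.02 on the log2 scale at 8 h (-1.02 ± 0.13, adjusted p = 4.9e-07), and was -0.73 ± 0.12 from the 2 h rats (adjusted p = 3.07e-05) and -1.04 ± 0.19 from sham rats (adjusted p = 0.000257). With a floor of 0.2 the call was lost. At 2 h its difference was -0.29 ± 0.12 (adjusted p = 0.11). The volume-depleted rats, at 0.162, 0.155, 0.169 and 0.179 times, were all below normal rats 1 to 3, and were not called (-0.42 ± 0.12, adjusted p = 0.237).

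Mylk3, the myosin light chain kinase of heart muscle, was the 1 cytoskeletal gene called lower at both times after mercuric chloride. At 8 h after the toxin it was at 0.19, 0.227 and 0.2 times the array median, against 0.614 and 0.763 times in normal rats 11 and 12. At 2 h it was at 0.448, 0.513 and 0.37 times, and at 8 h of ischemia at 0.307, 0.322 and 0.698 times, against 1.1, 1.02 and 0.823 times in normal rats 1 to 3. Each of these 3 groups lay below the normal rats of its lot without overlap, and the third 8 h ischemia rat was nearest to them. Mylk3 was at -1.74 ± 0.36 at 8 h after mercuric chloride (adjusted p = 0.00202), a call lost without normal rat 12. It was at -1.14 ± 0.33 at 2 h (adjusted p = 0.0294), a call lost without normal rat 1 or 2 or mercuric chloride rat 1 or 3, and at -1.24 ± 0.33 at 8 h of ischemia (adjusted p = 0.00319). Sham rats, at 0.272, 0.596 and 0.452 times, were below normal rats 11 and 12 as well, uncalled (-0.71 ± 0.36, adjusted p = 0.947), and ischemia at 8 h did not differ detectably from sham (-0.53 ± 0.49, adjusted p = 0.489). Mercuric chloride at 8 h did (-1.03 ± 0.33, adjusted p = 0.0361), a call lost without sham rat 2 or 3 or without any single mercuric chloride rat. The normal rats of the second lot were lower in Mylk3 than those of the first (-0.51). The other light chain and kinase genes tested, Myl11 and Mylk2 of skeletal muscle, were called nowhere.

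Of 9 striated muscle markers, 3 were lower at 8 h of ischemia: Tnnc2 (-1.0 ± 0.19, adjusted p = 0.000104), Casq1 (-0.93 ± 0.24, adjusted p = 0.00241) and Ckm (-0.35 ± 0.13, adjusted p = 0.0347). Of all probes, 20.9% were lower there. The other markers were not called and lay on both sides of normal. Tnnt2 was at 0.50 ± 0.58, Tnni2 at 0.50 ± 0.36, Ryr1 at 0.21 ± 0.13 and Tnni3 at 0.11 ± 0.21. Mb was at -0.14 ± 0.27 and Ttn at -0.24 ± 0.14, and the median of the 9 was -0.14. The summed level of the 9 was 3.19 to 3.68 times the median at 8 h and 4.56 to 5.95 times in normal rats 1 to 3, where Ryr1 was at the floor. At 8 h after mercuric chloride none of the 9 was called, and their sum was 4.78 to 5.1 times, against 5.61 to 5.88 times in normal rats 11 and 12. Their part in the Myl3 and Mylk3 results was not tested.

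The CArG box is the binding motif of serum response factor (SRF), a regulator of many actin genes. It stood in 3 of the 34 promoters of the cytoskeletal genes (8.82%), those of Myl3, Myo1e and Acta1, and in 1.64% of all promoters. Of these genes, Myl3 was lower at 8 h of ischemia, Myo1e was higher and Acta1 was not called. The promoters of Myl3 and Myo1e, the called genes, are shown. Both genes lay near the floor at 8 h, and both calls were lost with a floor of 0.2. Capitals mark the motif, with its first base at -97 from the start in Myl3 (chr8:119616844-119617143, plus strand) and at -96 in Myo1e (chr8:79768578-79768877, plus strand).
Myl3: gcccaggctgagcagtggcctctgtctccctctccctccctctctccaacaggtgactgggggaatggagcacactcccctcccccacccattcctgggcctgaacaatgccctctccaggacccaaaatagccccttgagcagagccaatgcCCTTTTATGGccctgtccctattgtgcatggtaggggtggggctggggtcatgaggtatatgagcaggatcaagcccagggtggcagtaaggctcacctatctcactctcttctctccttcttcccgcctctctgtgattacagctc
Myo1e: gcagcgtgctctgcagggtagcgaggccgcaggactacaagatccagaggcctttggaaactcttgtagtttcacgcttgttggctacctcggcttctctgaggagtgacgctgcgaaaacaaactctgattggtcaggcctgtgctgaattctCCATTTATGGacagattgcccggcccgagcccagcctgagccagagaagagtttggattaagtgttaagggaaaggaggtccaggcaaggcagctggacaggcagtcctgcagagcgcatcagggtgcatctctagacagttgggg
A match is a description of letters, not a shown binding site.

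Unconventional myosins carry cargo or link membranes to actin, and 2 of the 9 were higher at 8 h of ischemia, a share of 22.2% that lies near the 20.8% of all probes. Myo1e, which in podocytes is needed for the glomerular filter, was at 0.277, 0.226 and 0.17 times the array median at 8 h and at 0.128, 0.149 and 0.128 times in normal rats 1 to 3, with no overlap (0.71 ± 0.21, adjusted p = 0.00781). With a floor of 0.2, with quantile normalization, with only the compared groups in the fit, or without the first 8 h rat, it was not called. None of the 4 podocyte markers was called at 8 h. Their summed level was 5.02 to 5.34 times the median at 8 h, against 2.48 to 6.25 times in normal rats 1 to 3, with Synpo at the floor in all normal rats. Myo19, a motor of mitochondria, was at 1.77, 2.15 and 3.91 times at 8 h and at 1.75, 1.47 and 1.82 times in normal rats 1 to 3. The groups overlapped, and its call (0.56 ± 0.20, adjusted p = 0.0248) was lost without the third 8 h rat or normal rat 2, without the lot term, and with only the compared groups in the fit. The other 7, Myo1a, Myo1d, Myo1g, Myo5b, Myo5c, Myo9a and Myo9b, were called nowhere. Myo1a, a motor of the intestinal brush border, was at 0.159, 0.173 and 0.721 times 8 h after mercuric chloride, where 1 rat lay far above the other rats of its group, and at 0.207 and 0.118 times in normal rats 11 and 12 (0.80 ± 0.37, adjusted p = 0.206).

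Between the times of ischemia, 12 of the 36 genes differed at 8 h from 2 h (33.3%, against 37.7% of all probes, 20.5% higher and 17.2% lower), 9 higher and 3 lower. The higher ones were Arpc1b, Tubb5, Tuba1a, Tubb4b, Tpm4, Myo19, Actr3b, Myh9 and Actr6, and the lower ones Mylk3, Myl3 and Myh11. The call of Mylk3 was lost without 2 h rat 2, 3 or 4 and without 8 h rat 1 or 2, and that of Myh11 without 8 h rat 1 or 2. Tubb2b and Actg2 were not called between the times, at 0.24 ± 0.33 (adjusted p = 0.597, 95% interval -0.43 to 0.91) and 0.09 ± 0.11 (adjusted p = 0.542, 95% interval -0.13 to 0.31). Without the third 8 h rat Tubb2b, Tpm1, Tpm2, Actn2 and Myo1e were called between the times as well, and Actr6 and Myo19 were not.

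The question of whether αMSH altered the early response was tested between the treated and untreated 2 h ischemia groups. No cytoskeletal gene was called, nor any probe on the array (0.0%). The smallest adjusted p of any probe was 0.7037, and 342 probes and 1 of the genes, Tubgcp2 (-0.20 ± 0.09), had an unadjusted p under 0.05. The αMSH rats were lower in Tubb2b by 0.34 (-0.34, 95% interval -1.01 to 0.33) and in Tpm4 by 0.22 (-0.22, 95% interval -0.47 to 0.03), intervals that include no difference.

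Ischemia at 2 h differed from mercuric chloride at 2 h in 6 genes, all higher after ischemia (16.7%, against 15.1% of all probes, 8.09% higher and 6.98% lower). They were Tubb2b (1.32 ± 0.33, adjusted p = 0.00589), Actg2, Actn2, which was at least 1.64-fold higher with every mercuric chloride rat at the floor (adjusted p = 0.00172), Tpm4 (0.57 ± 0.12, adjusted p = 0.0017), Myh9 (0.46 ± 0.13, adjusted p = 0.0194) and Tubgcp2 (0.28 ± 0.09, adjusted p = 0.0426). The calls of Myh9 and Tubgcp2 were each lost without several single rats. That of Actn2 was lost with a floor of 0.2 and with only probes above the floor in at least 16 rats. Mercuric chloride at 8 h differed from sham surgery at 8 h in 6 genes (16.7%, against 13.1% of all probes, 5.88% higher and 7.2% lower), with Tubb4b and Actn2 higher and Tubgcp2, Myl3, Tpm2 and Mylk3 lower. Myl3 was at 0.158, 0.166 and 0.171 times the median after mercuric chloride and at 0.22, 0.196 and 0.232 times in sham rats (-0.39 ± 0.13, adjusted p = 0.0419). Without sham rat 1 only Mylk3 of the 6 was still called. Mylk3 itself was lost without sham rat 2 or 3, without any single mercuric chloride rat, and with only the compared groups in the fit. Each of the 6 was lost without at least 1 single rat.

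Sham rats had surgery but no ischemia, so ischemia at 8 h was also set against them, as the difference between the changes from each lot's normal rats. The 2 h ischemia groups had no sham rats of their time. By this measure 10 of 36 genes differed (27.8%, against 22.9% of all probes, 11.9% higher and 11.0% lower), 9 higher and 1 lower. The largest were Tubb2b (1.80 ± 0.52, adjusted p = 0.0137), Arpc1b (1.76 ± 0.26, adjusted p = 2.25e-05), Tubb5 (1.31 ± 0.28, adjusted p = 0.00125), Tubb4b (1.30 ± 0.30, adjusted p = 0.00265) and Tuba1a (1.15 ± 0.25, adjusted p = 0.00133). Tpm2, called against normal rats, was at -0.03 ± 0.24 against sham (adjusted p = 0.944), with sham itself at 0.47 ± 0.18 from normal rats (adjusted p = 0.549).

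**Figure D4:**
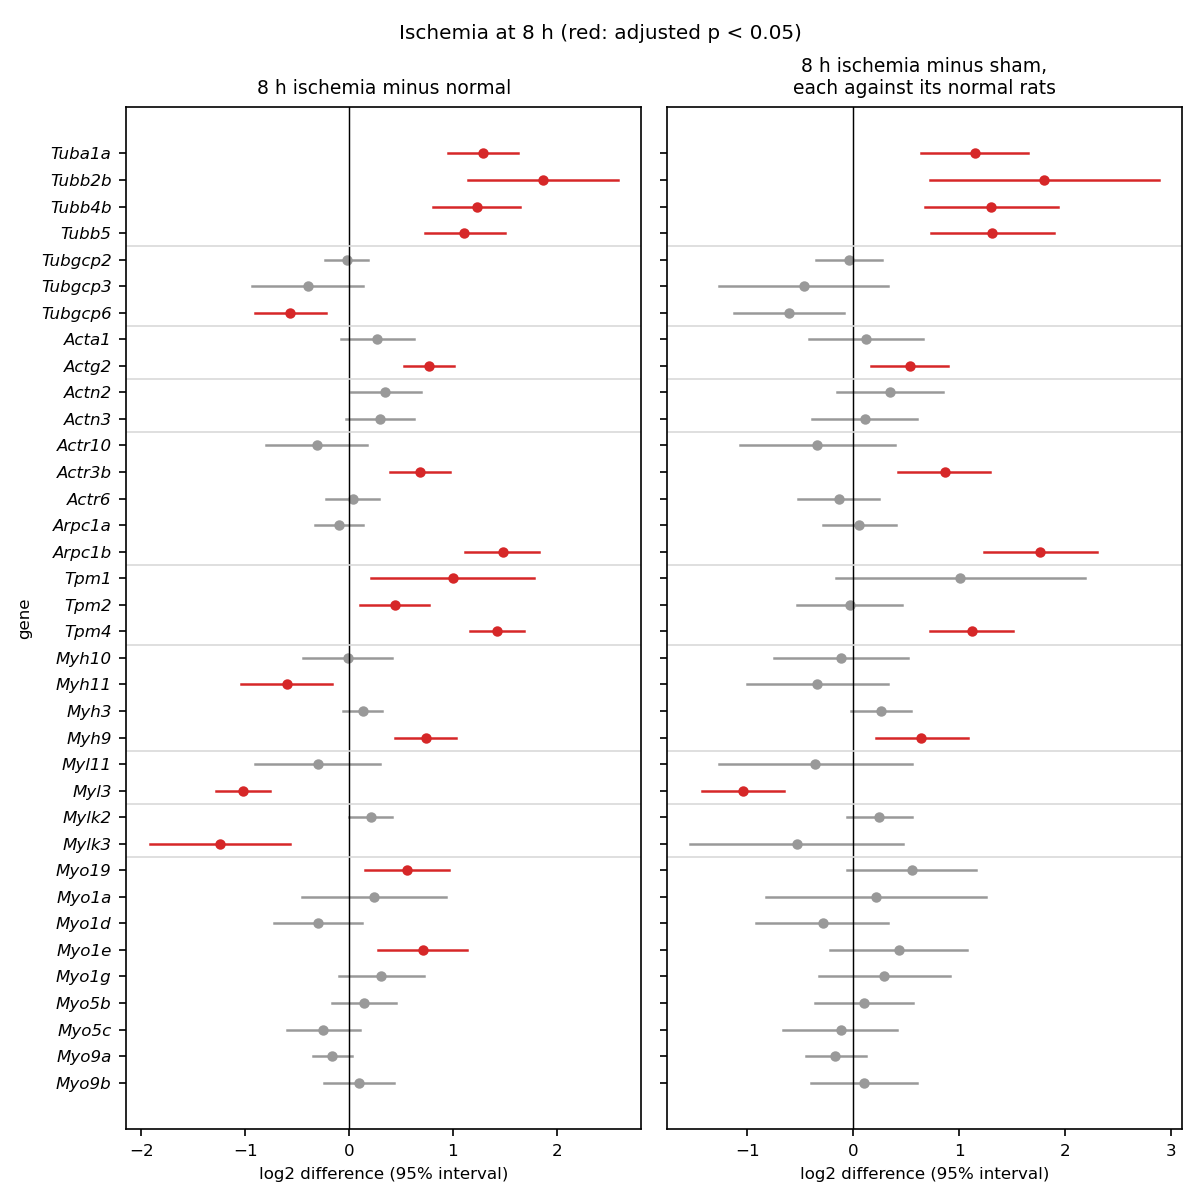
Log2 difference (points, with 95% intervals) of the 36 tested genes at 8 h of ischemia from normal rats (left) and from sham rats, each against the normal rats of its lot (right), with adjusted p under 0.05 in red. The 4 tubulins, Arpc1b and Tpm4 lie above 1 in both panels, and Myl3 lies at -1.02 in the left panel and -1.04 in the right.

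Genes that act on these proteins were taken from lists of the same pathways. Of 18 genes of actin assembly and severing, 8 were higher and 3 lower at 8 h of ischemia, with a median of 0.38. Of all probes, 20.8% were higher and 20.9% lower there. Vasp, which extends filaments, was higher by 1.08 ± 0.16 (adjusted p = 7.04e-06). Vil1, the villin of the brush border, fell by 1.01 on the log2 scale (-1.01 ± 0.14, adjusted p = 1.9e-06), and Add3, a capping protein of the membrane skeleton, by 1.14 (-1.14 ± 0.11, adjusted p = 6.58e-09).

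Of 21 actin cross-linkers and membrane linkers, 11 were higher and 2 lower at 8 h of ischemia, and 7 were higher and 1 lower at 2 h. Of all probes, 20.8% were higher and 20.9% lower at 8 h, and 7.36% and 7.37% at 2 h. Tes, a focal adhesion protein, was higher by 2.20 ± 0.14 at 8 h (adjusted p = 1.04e-11) and by 1.98 ± 0.13 at 2 h (adjusted p = 5.44e-11). Csrp3, a muscle LIM protein, was at the floor in all normal rats and was at least 8.51-fold higher at 8 h (adjusted p = 1.29e-08) and at least 12.5-fold higher at 2 h (adjusted p = 9.6e-10). The vinculin gene Vcl, of focal adhesions, rose by 1.22 ± 0.17 at 8 h (adjusted p = 3.62e-06), and the filamin gene Flna by 1.03 ± 0.12 (adjusted p = 2.26e-07). The list of SRF, its cofactors and known targets gave 11 genes, among them Vcl, Flna and Tagln. Srf itself was not among the 11. The only cofactor was Mrtfa, with no call at either time of ischemia (-0.03 ± 0.13 at 2 h, 0.23 ± 0.14 at 8 h). Of the 11, 8 were higher at 2 h and 5 at 8 h, and 6 were lower at 8 h than at 2 h, as were 17.2% of all probes. The transcription factor gene Fos was higher by 6.16 ± 0.66 at 2 h (adjusted p = 2.07e-07) and by 3.31 ± 0.70 at 8 h (adjusted p = 0.000458). Outside ischemia, Fos was also called higher 8 h after mercuric chloride (3.23 ± 0.79) and after cisplatin (3.79 ± 0.79). Ccn1, a matrix protein gene, was higher by 2.40 ± 0.27 at 2 h of ischemia, with no call at 8 h (0.38, adjusted p = 0.309).

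Of 28 tested genes of microtubule-associated proteins, motors and tubulin folding, 7 were higher and 4 lower at 8 h of ischemia, and 0 were higher and 1 lower at 2 h. The 7 of 28 lie near the 20.8% of all probes that were higher at 8 h. Map6, which stabilises microtubules, was at the floor in normal rats 1 to 3 and at least 4.23-fold higher at 8 h (adjusted p = 5.93e-06). The chaperonin subunit genes Tcp1 and Cct5, whose complex folds tubulin and actin, moved apart, Tcp1 by 1.07 ± 0.18 (adjusted p = 3.91e-05) and Cct5 by -0.82 ± 0.26 (adjusted p = 0.0144). Mapt, the microtubule-associated protein tau, was lower (-1.09 ± 0.22, adjusted p = 0.000314). Of 12 tested intermediate filament genes, 7 were higher and 0 lower at 8 h, with a median of 0.73, among them Plec, a linker of filaments (2.18 ± 0.16, adjusted p = 7.57e-11), and Vim, the vimentin of mesenchymal and injured tubule cells (1.25 ± 0.15, adjusted p = 4.9e-07). For comparison, 20.8% of all probes were higher and 20.9% lower at 8 h, and 7.36% and 7.37% at 2 h.

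Markers of kidney cell types also differed in the same samples. Of all probes, 20.8% were higher and 20.9% lower at 8 h of ischemia, and 5.27% and 5.66% at 8 h after mercuric chloride. Of 6 proximal tubule markers, 5 were lower at 8 h of ischemia, with a summed level of 109 to 141 times the median, against 249 to 333 times in normal rats 1 to 3. At 8 h after mercuric chloride 4 of the 6 were lower, with a sum of 79.4 to 137 times, against 205 to 222 times in normal rats 11 and 12. In that group no tubulin and no tropomyosin was called against normal rats in the main run, where Tubb4b was at 0.67. Tpm4 and Tubb4b were called there with quantile normalization, and also without the arrays that stand apart. Of 6 endothelial markers, 1 was higher and 3 were lower at 8 h of ischemia, and their sum was 12.5 to 18.2 times, against 15.1 to 18.0 times in normal rats 1 to 3. Of 4 proliferation markers, Pcna was higher and Mki67 lower, with a sum of 7.4 to 13.9 times, against 5.21 to 9.48 times. Of 2 red blood cell markers 1 was higher and 1 lower. The part of these markers in the cytoskeletal results was not tested.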

How the data were processed

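The authors' deposited values are recorded as "other": per the values themselves, each equals 2 to the power x, where x is an intensity divided by about its array's median. Their log2 were whole multiples of 0.0001 in 100.0% of 343070 values tested, within 1e-06. The log2 was therefore used as a linear intensity. The deposited fill value of 0.5 (0.97% of values) was treated as missing. The sources used here do not give the background correction. The values of sham rat 3 were 2 lines out of line with the probe names (Spearman correlation with the other arrays 0.0696 as deposited, 0.9837 when moved) and were moved.

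Intensities were divided by the array median, floored at 0.1 and brought to log2, and the 2 arrays of a rat were averaged. Per array, 0.71% to 1.74% of probes were missing and 1.65% to 12.91% lay at the floor. The lowest share at the floor, 1.65%, was that of 8 h ischemia rat 3, where the other 8 h ischemia arrays were at 10.65% to 12.18%. The number of arrays limited the precision. All 9 groups were fitted with limma 3.58.1 (R 4.3.3; lmFit and eBayes) with terms for group and lot, leaving 21 residual degrees of freedom. Probes entered a test with 3 or more rats above the floor and 2 or more rats measured per group. Benjamini-Hochberg adjustment ran over all probes of each of 13 comparisons. The series' design text gives 2 lots of 24 and 12 arrays with 3 normal rats in each, while the labels used here hold 5 normal rats. The lots rest on the number series of the normal rats. Treated arrays correlated with the lot difference seen in normal rats at -0.484 to -0.017 in the first lot and 0.298 to 0.487 in the second.

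Gene names are those of the platform annotation, updated through RefSeq. Of the probes, 7229 probes had 1 symbol, 21 several and 2661 none. The members and lists were chosen with earlier results of these data known. Genes with a called change of at least 1 against normal rats, or called in at least 3 of the 8 comparisons with them, are given in every rat. So are genes of a fixed list, such as Myh9 (11 genes in all). List genes are mostly named from those with a called change of at least 1, while Mrtfa is named as the only cofactor of its list. The 37 cytoskeletal genes were left out of the pathway and marker lists. Marker genes named beside a result were chosen after their values were seen. Promoters were matched by symbol: 33 genes have 34 promoters, and 4 genes are not shown. Tests were checked on simulated data. Alternatives were quantile normalization, a floor of 0.2, a filter at 16 rats above the floor, no lot term, fits of single pairs of groups, a replicate block, sham rat 3 as deposited, the other probe of a gene, and leaving out the arrays that stand apart (those of 8 h ischemia rat 3 and normal rat 1, and 1 of the pair from volume depletion rat 1) or single rats. One of the pathway lists is not reported here.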

Additional observations from a re-analysis of the deposited data

Results flagged for a closer look

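Among the 11 genes given in every rat, there were 8 in which the change from normal rats at 8 h of ischemia differed from that at 2 h by limma's test of the difference, with 3 and 4 rats. The difference, as 8 h minus 2 h on the log2 scale, was 1.42 for Arpc1b, 1.36 for Tubb5, 0.94 for Tuba1a, 0.85 for Tubb4b, 0.75 for Tpm4 and 0.50 for Myh9. It was -0.88 for Mylk3 and -0.73 for Myl3. In the first 6 genes and in Myl3, all 3 rats at 8 h lay beyond all 4 rats at 2 h. In Mylk3 the third 8 h rat, at 0.698 times the array median, lay above the first 2 h rat, at 0.45 times. Both changes share the same normal rats, which cancel in the difference. No rat stood out in 22 tests, which took each of the 11 genes in the groups of 4 rats, 2 h of ischemia and volume depletion. Chance flags about 1 in 20 such tests. The other groups, among them 8 h of ischemia, were not tested in this way.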

How the results depend on the processing

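No called change reversed in direction under any alternative run. The number of cytoskeletal genes called moved by over 1.5 times in these cases. With quantile normalization it was 2 at 2 h and 5 at 8 h after mercuric chloride. Without the lot term it was 9 with αMSH, 3 at 2 h and 8 at 8 h after mercuric chloride, and 18 for ischemia at 8 h against sham. With only the compared groups in the fit it was 1 with αMSH, 9 at 8 h of ischemia, 2 at 2 h after mercuric chloride and 7 for 8 h against 2 h. With sham rat 3 as deposited, out of line with the probe names, it was 1 at 2 h of ischemia, 0 with αMSH, 5 at 8 h of ischemia, 0 at 2 h and 0 at 8 h after mercuric chloride, 3 for 8 h against 2 h, 0 for ischemia against mercuric chloride at 2 h, and 2 for each comparison with sham. Without the arrays that stand apart it was 6 at 8 h after mercuric chloride and 11 for ischemia against mercuric chloride at 2 h. The causes were not tested.

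Leaving out each rat in turn gave 15 to 18 genes at 8 h of ischemia, 6 at 2 h, 2 to 4 with αMSH, 0 to 1 at 2 h and 0 to 2 at 8 h after mercuric chloride, 11 to 15 for 8 h against 2 h, 4 to 6 for ischemia against mercuric chloride, 8 to 11 for ischemia against sham, 1 to 4 for mercuric chloride against sham, and 0 in the other comparisons. Rats with the same number did not pair: 18 of 46 pairs correlated above 0.1 (range -0.591 to 0.535). With the number as a replicate block the counts were 1 with αMSH, 0 at 2 h after mercuric chloride, 3 for ischemia against mercuric chloride, 15 at 8 h of ischemia, 4 at 2 h and 10 for 8 h against 2 h. The block lost Myo19 and Tpm1 at 8 h of ischemia and Actn2 and Tubgcp6 at 2 h. Of 19 called changes of the genes given in every rat, 1, Myh9 at 8 h of ischemia, was kept in every alternative run, 9 were lost only with sham rat 3 as deposited, and 9 were lost under other alternatives. Tubb2b at 8 h of ischemia was not called with only the compared groups in the fit. Groups of 3 to 5 rats, the lots inferred from the numbers of the normal rats, and genes near the floor limit these results.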
